A study of Mus musculus with 30 samples.

Results

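The 37 genes that the mouse mitochondrial chromosome encodes were examined in quadriceps muscle. They were taken by position and symbol, as the 37 of 56748 rows of the deposited count table that lie on the mitochondrial chromosome and carry symbols beginning with mt-. They comprise 13 protein genes, 2 rRNA genes and 22 tRNA genes, of which 28 are read in the heavy-strand direction and 9, *mt-Nd6* and 8 tRNA genes, in the opposite one. Counts on them were found in 25 of 30 libraries. The other 5 listed 0 on all 37 genes and give no measurement of them, and 1 further library, free L9 B, was kept apart and is in no group value below unless stated.

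HSA-LR20b mice (HSA-LR) carry a human skeletal actin transgene with an expanded CTG repeat, expressed from the actin promoter in skeletal muscle on the FVB/N strain, and model the muscle RNA toxicity of myotonic dystrophy type 1 (DM1). The groups were untreated FVB/N wild-type mice (WT, 5 labelled), untreated HSA-LR mice (NT, 8 labelled), and HSA-LR mice injected by tail vein with pacDNA-L9, an antisense oligonucleotide against the CUG repeat on a bottlebrush polymer, at 5.3 mg/kg (4 labelled), 21.2 mg/kg (3 labelled) or 42.4 mg/kg (3 labelled). Control HSA-LR mice received 5.3 mg/kg of the oligonucleotide without polymer (free L9, 3 labelled), 5.3 mg/kg of a scrambled conjugate (pacDNA-Scr, 2 labelled) or 40 nanomoles of the polymer alone (Brush, 2 labelled). The labels give an age of 8 weeks, which the study states as the age at injection. By its account, 21.2 mg/kg was given in 4 injections over 2 weeks and 42.4 mg/kg in 8. Dose and number of injections thus cannot be told apart. Muscle of treated mice was taken 2 weeks after the last injection, and RNA was selected on poly-T beads before sequencing. With the 5 empty libraries and free L9 B set aside, 5 WT, 6 NT, 3 mice at 42.4 mg/kg and 2 in each other group remained.

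Mitochondrial DNA is transcribed from both strands as long precursors, which are cut apart mostly at the tRNAs that lie between the protein and rRNA genes. The protein genes encode core subunits of respiratory complexes I, III, IV and V, whose other subunits come from the nucleus, and the rRNAs and tRNAs serve the organelle's own ribosomes. Muscle fibres depend on this machinery for oxidative ATP production, and oxidative fibres hold more of it than glycolytic ones. Most mature mitochondrial mRNAs and the rRNAs carry short poly(A) tails, whereas mature tRNAs do not, and nuclear chromosomes hold old copies of mitochondrial DNA.

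1 such copy bears directly on what could be measured. In the C57BL/6J reference GRCm39, the stretch chr1:24650616-24655269 (minus strand, 4654 bases) matches bases 6390 to 11042 of the 16299-base mitochondrial chromosome at 99.936% identity. The stretch holds the whole of 6 protein genes (*mt-Co2*, *mt-Atp8*, *mt-Atp6*, *mt-Co3*, *mt-Nd3* and *mt-Nd4l*) and 5 tRNA genes (*mt-Ts1*, *mt-Td*, *mt-Tk*, *mt-Tg* and *mt-Tr*), 31.3% of *mt-Co1* and 63.6% of *mt-Nd4*. The other 5 protein genes, both rRNA genes and 17 tRNA genes lie outside it. The mice were FVB/N, so that their own copy may differ from the reference. The first pair of sequences below shows the only difference in length, a run of A (in capitals) of 8 bases in *mt-Tr* and 9 in the copy, and the second pair the substitution T9461C near the start of *mt-Nd3* (mitochondrial base first, position on the mitochondrial chromosome, then the base of the copy, in capitals). The third difference lies in *mt-Co1* within 30 bases of the end of the copy. The last sequence, 100 bases of *mt-Atp6*, is the same in both places, as most of the stretch is, and a read that lies within it fits both equally well.
mt-Tr, chrM:9801-9848, plus strand: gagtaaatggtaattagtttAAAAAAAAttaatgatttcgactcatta
copy of mt-Tr, chr1:24651810-24651858, minus strand: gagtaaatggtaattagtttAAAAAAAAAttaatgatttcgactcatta
mt-Nd3, chrM:9431-9491, plus strand: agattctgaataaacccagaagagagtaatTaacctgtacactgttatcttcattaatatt
copy of mt-Nd3, chr1:24652168-24652228, minus strand: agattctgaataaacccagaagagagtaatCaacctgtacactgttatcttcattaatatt
mt-Atp6, chrM:8127-8226, plus strand, and chr1:24653433-24653532, minus strand: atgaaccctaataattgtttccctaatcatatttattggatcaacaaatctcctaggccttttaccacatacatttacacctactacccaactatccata

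Library totals ran from 13605309 to 26956558 counts. The libraries came in 2 deposited sets, 24 in the first and 6 numbered apart from them in the second, and the second consists of the 5 libraries without mitochondrial counts (NT 7, NT 8, 5.3 mg/kg C and D, and 21.2 mg/kg C) and free L9 C. In the 5, the depth would show a mitochondrial share of 1.31e-05% to 1.39e-05% of counts (3 counts), a limit that covers counting error only. In the first set without free L9 B (23 libraries), 7 marker genes of skeletal muscle fibres, such as *Acta1* and *Ckm*, summed to 116332 to 161549 CPM (here, counts scaled to an equal total of nuclear counts), as the tissue label would have it. The 7 markers of oxidative and slow fibres ranged far more, from 179 to 3950 CPM. At an equal depth of 11977092 nuclear counts, free L9 B held 14438 detected genes and the other 24 libraries with mitochondrial counts 17392 to 21036. The closest pair of libraries within a group differed by a chi-square of 17.7 per gene, far above sampling noise. Pairs across groups were not compared.

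Mitochondrial genes held 6.17% to 13.3% of the counts in the first set. In the 5 WT mice the shares were 6.99%, 8.77%, 7.67%, 8.43% and 13.3%, and in the 6 NT mice 7.28%, 8.79%, 6.17%, 7.42%, 7.06% and 8.97%. The last WT value, from the mouse without a running number in the deposited table, stood well above the rest, and the remaining WT values lay among those of NT. The group means were 9.03% ± 2.48 (SD, n = 5) in WT and 7.61% ± 1.07 (SD, n = 6) in NT, and 7.96% ± 0.797 (SD, n = 4) in WT without the unnumbered mouse. That mouse also had the highest WT sum of 73 nuclear genes for respiratory subunits, 37941 CPM against 22452 to 29171 in the other WT mice, and of the oxidative and slow fibre markers, 2723 CPM against 713 to 1533. Outside WT, NT 5 had a respiratory sum of 34959 CPM at a mitochondrial share of 7.06%. The highest oxidative and slow fibre sum of the first set, 3950 CPM in mouse C at 42.4 mg/kg, came with a share of 8.51%. The part of fibre type in the share of the unnumbered mouse was not tested. In bulk muscle, fewer cells of a type and less RNA per cell cannot be told apart.

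Treated mice covered the same range. At 5.3 mg/kg the shares were 6.48% and 8.49%, at 21.2 mg/kg 9.66% and 6.25%, and at 42.4 mg/kg 7.28%, 7.78% and 8.51%. The values did not line up with dose, since the pair at 21.2 mg/kg spanned all of the others. Brush gave 6.39% and 7.71%, and pacDNA-Scr 7.25% and 7.44%. The group means at the 3 doses were 7.48% ± 1.42 (SD, n = 2), 7.96% ± 2.41 (SD, n = 2) and 7.86% ± 0.618 (SD, n = 3), with 7.05% ± 0.929 (SD, n = 2) for Brush and 7.34% ± 0.132 (SD, n = 2) for pacDNA-Scr. Each lay within 1 SD of the NT mean. Free L9 was different in its spread, with 7.04% in mouse A, 12.0% in mouse C and, shown apart, 22.3% (Wilson 95% interval 22.298 to 22.3378) in mouse B. Counts on adipocyte markers in mouse B (2529 CPM) were also higher than in any other library of the first set. NT 4 came close to it with 2393 CPM and had a mitochondrial share of 7.42%. Counting error was small throughout, with no Wilson 95% interval wider than 0.0398 percentage points, so that nearly all of the spread lay between mice and libraries.

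**Figure D1:**
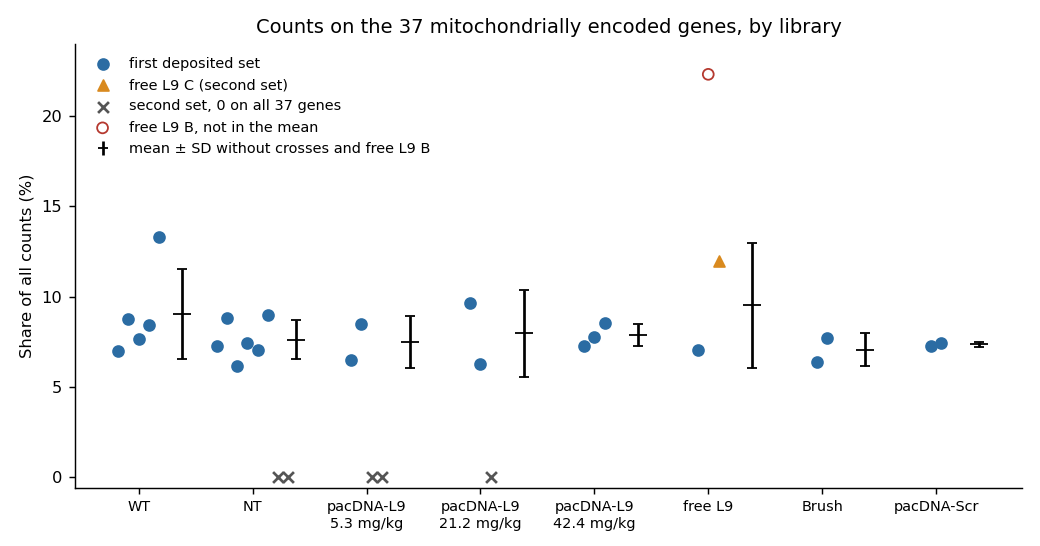
Share of all counts (%) on the 37 mitochondrially encoded genes in each of the 30 libraries, by group, with the mean ± SD of the libraries used (crosses and the open circle are not in it). Most points lie between 6.17% and 9.66%, whereas the unnumbered WT mouse (13.3%), free L9 C (12.0%) and free L9 B (22.3%) stand above them, and 5 libraries sit at 0.

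By gene class, protein genes made up nearly all of these counts. In the first set they held 96.1% to 98.4% of mitochondrial counts, rRNA genes 1.44% to 3.73% and tRNA genes 0.0921% to 0.201%, which amounts to 1284 to 3877 counts on all 22 tRNA genes together. The means in WT and NT were 97.3% ± 0.510 and 97.6% ± 0.549 for protein genes, 2.57% ± 0.512 and 2.26% ± 0.523 for rRNA genes, and 0.152% ± 0.0284 and 0.163% ± 0.0348 for tRNA genes (SD, n = 5 and 6). At 42.4 mg/kg they were 97.8% ± 0.109, 2.05% ± 0.118 and 0.120% ± 0.0383 (SD, n = 3). WT and NT thus differed in each class by less than 1 SD, whereas the 42.4 mg/kg means lay about 1 SD of WT from the WT means for protein and rRNA genes and more than 1 SD of NT under the NT mean for tRNA genes. In the same order the means were 97.4%, 2.49% and 0.146% at 5.3 mg/kg and 98.1%, 1.80% and 0.134% at 21.2 mg/kg. They were 97.2%, 2.61% and 0.139% with Brush and 97.1%, 2.73% and 0.139% with pacDNA-Scr (n = 2 each). Across the doses, protein and rRNA means were not in the order of dose, and tRNA means fell. These shares were not tested. The pacDNA-Scr mice differed most from each other in the rRNA share, with 1.74% and 3.73%, the latter the highest of the first set. Free L9 B had a usual makeup (97.4% protein, 2.50% rRNA and 0.0994% tRNA genes) despite its high total. Free L9 C did not, with 96.1% on protein genes, 1.11% on rRNA genes and 2.79% on tRNA genes. RNA was selected by its poly(A) tail, so that none of these shares is the share of the class in total RNA.

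Levels were compared between genes in CPM (counts scaled to an equal library total) per kilobase of gene, as medians over the 23 first-set libraries. *mt-Co1*, the catalytic subunit of complex IV, was highest at 18301 CPM per kb and alone took 34.7% to 42.2% of mitochondrial counts. *mt-Cytb*, the core of complex III, followed at 10792 CPM per kb. Among the complex I subunits, *mt-Nd1* stood at 10616, *mt-Nd2* at 6683, *mt-Nd4* at 5561, *mt-Nd6* at 3331 and *mt-Nd5* at 2868 CPM per kb. *mt-Nd6*, the sole protein gene of the light strand, thus lay within the range of the heavy-strand subunits. Whether the counting used strand is not given in the sources used here. If it did not, reads of *mt-Nd6* cannot be told apart from antisense RNA of the other strand. The rRNA genes *mt-Rnr1* (12S) and *mt-Rnr2* (16S) stood at 830 and 589 CPM per kb.

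All 6 protein genes inside the copied stretch were lower than these 7. *mt-Co2* and *mt-Co3*, partners of *mt-Co1* in complex IV, stood at 702 and 462 CPM per kb, and *mt-Atp6*, the membrane subunit of the ATP synthase beside its rotor, at 496. *mt-Nd4l* and *mt-Nd3*, small subunits of complex I, stood at 118 and 42.6 CPM per kb, and *mt-Atp8*, which overlaps *mt-Atp6* by 43 bases, at 14.2. Subunits of the same complex thus spanned more than an order of magnitude, with *mt-Co1* at 18301 and *mt-Co3* at 462 CPM per kb, and the low members were those wholly inside the stretch. The ranges of neighbours in the full order of 37 genes overlapped in 36 of 36 pairs, so that the exact order holds for the medians alone. How reads that match both places were counted is not given in the sources used here, and its part in these low levels was not tested.

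**Figure D2:**
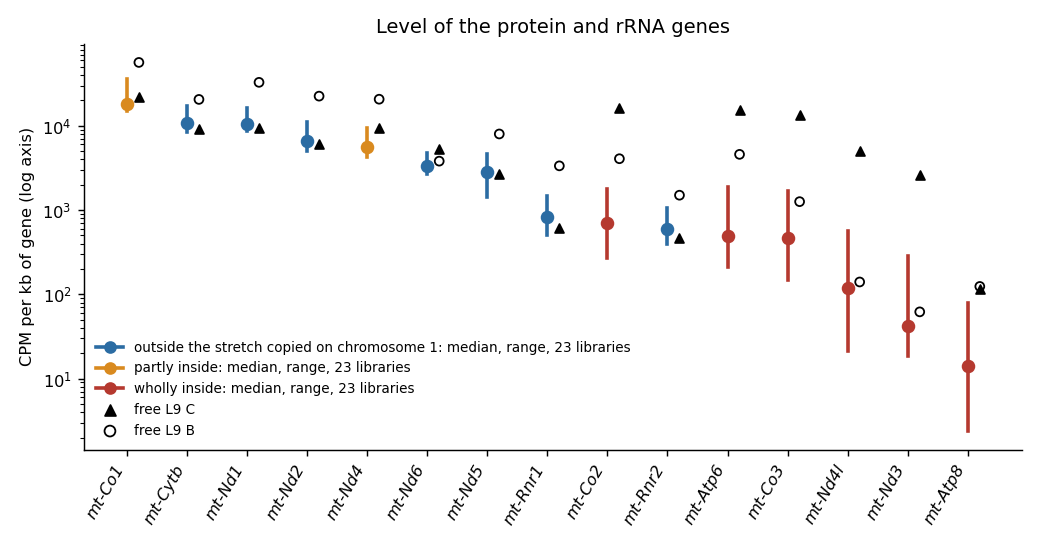
Level in CPM per kilobase of gene (log axis) of the 13 protein and 2 rRNA genes, ordered by median; circles and bars give the median and range over 23 first-set libraries, triangles free L9 C and open circles free L9 B. The 6 genes wholly inside the stretch copied on chromosome 1 (medians 14.2 to 702) lie below the 7 other protein genes (2868 to 18301) in the first set, while in free L9 C 5 of the 6 reach 2610 to 16052.

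Variation between libraries followed the same split. Over the first set, the coefficient of variation was 15.3% to 29.2% for the 5 protein genes outside the stretch, 27.9% and 29.1% for the rRNA genes, 19.5% and 23.1% for *mt-Nd4* and *mt-Co1*, which lie partly inside, and 59.8% to 106% for the 6 inside. Within NT alone, *mt-Co1*, *mt-Cytb*, *mt-Nd1* and *mt-Nd6* varied by 13.4%, 13.9%, 13.5% and 12.6%, beside a median of 13.3% over 1242 nuclear genes of at least 100 CPM, while *mt-Nd5* (35.9%) and *mt-Rnr2* (40.7%) varied more and the 6 inside genes by 51.2% to 124%. Among genes inside the stretch, *mt-Atp6* in WT read 376, 291, 213, 294 and 1259 CPM after normalization, and *mt-Co3* 169, 277, 256, 1306 and 1284. The high mice differed between these neighbouring genes, the unnumbered mouse being high for both and WT 4 for *mt-Co3* alone. Of all 150-base windows of a gene, 44.3% to 100% also occurred in the copy for the 6 inside genes, 57.4% for *mt-Nd4*, 28.3% for *mt-Co1* and 0% for the genes outside.

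The copied genes themselves appear in the table under 7 pseudogene names on chromosome 1. In the 11 WT and NT libraries with mitochondrial counts they held 0.0631% to 0.170% of all counts. In the 5 libraries with 0 on the mitochondrial genes they held 5.35% to 6.63%, and their median levels were 31.1 to 107 times those of the first set. *Atp6-ps*, the copy of *mt-Atp6*, ranged from 69.7 to 419 CPM in the first set and from 13342 to 17332 CPM in the 5, and *Gm29216*, the copy of part of *mt-Co1*, from 78.8 to 338 and from 8073 to 10359 CPM. These 5 libraries thus listed 0 on the mitochondrial chromosome and high counts on its copy. Copies of genes outside the stretch stayed low in the 5: *Gm4076*, a chromosome 13 copy of *mt-Nd5* of 95.2% identity, at 0.0442 to 0.185 CPM and *Gm13339*, a chromosome 2 copy of *mt-Nd2*, at 0.278 to 0.530 CPM, where the first set ran to 0.345 and 3.25 CPM. *Gm4076* had only a few counts per library, too few to show a change. Also on chromosome 2, *Gm13341*, a copy of *mt-Co2* of 95.9% identity, had a median of 1.15 CPM in the first set and 12.6 in the 5. *Gm13340*, a copy of *mt-Co1*, had 23.2 and 14.4 CPM.

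Free L9 C combined both patterns. Its copies held 5.05% of counts, and *mt-Co2*, *mt-Atp6* and *mt-Co3* stood at 10979, 10409 and 10531 CPM beside 10584, 11854 and 10720 CPM on their copies *Gm28661*, *Atp6-ps* and *Gm28437*. Gene and copy were thus counted about equally in that library, at 96.4%, 114% and 102% of the mitochondrial count. In the first set the copies of these 3 genes had fewer counts than the genes, at 35.7%, 42.4% and 43.3%, whereas *Gm28438* exceeded *mt-Nd3* at 211%. Genes inside the stretch took 31.4% of mitochondrial counts in free L9 C and 0.896% to 3.35% in the first set, while genes wholly outside it held 3.49% of all counts, within the first-set range of 3.00% to 5.99%.

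**Figure D3:**
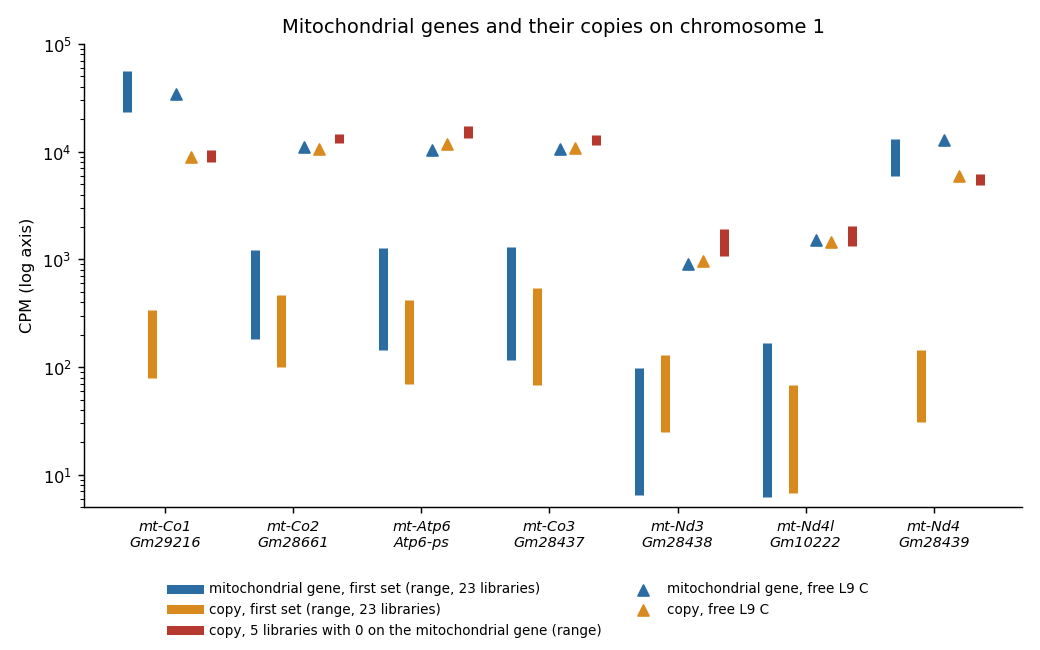
CPM (log axis) of 7 mitochondrial genes and of their copies on chromosome 1, as ranges over 23 first-set libraries and over the 5 libraries with 0 on the mitochondrial genes, with free L9 C as triangles (free L9 B is not drawn). In the 5 libraries each copy lies far above its first-set range, and in free L9 C copy and gene nearly coincide for *mt-Co2*, *mt-Atp6*, *mt-Co3*, *mt-Nd3* and *mt-Nd4l*.

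The tRNA genes were counted at low and uneven levels. *mt-Tp*, the proline tRNA, led with 532 to 1465 counts in the first set (median 883, or 656 CPM per kb), followed by *mt-Te* for glutamate (86 to 658 counts), *mt-Tc* for cysteine (94 to 662) and *mt-Tl2* for leucine (35 to 441). The first 3 of these belong to the light strand. *mt-Ty*, *mt-Tl1*, *mt-Tn*, *mt-Ts2*, *mt-Th* and *mt-Tw* had medians of 135, 101, 99, 43, 39 and 36 counts. *mt-Ti*, *mt-Tm*, *mt-Tq* and *mt-Ts1* had medians of 4 to 8 counts, and these 14 are the tRNA genes that passed the filter on low counts. The 8 others were *mt-Ta* (0 to 8 counts), *mt-Tr* (0 to 11), *mt-Tv* (0 to 6), *mt-Tt* (0 to 6), *mt-Td* and *mt-Tk* (0 to 2), *mt-Tg* (0 to 1) and *mt-Tf*, which was listed at 0 in each of the 30 libraries. All 5 tRNA genes inside the copied stretch were among those with a median of at most 4 counts. Sequences of 3 tRNAs of the light strand are shown, since *mt-Tp* and *mt-Te* carried the most counts and *mt-Ts1* differed most between libraries.
mt-Tp, chrM:15356-15422, minus strand: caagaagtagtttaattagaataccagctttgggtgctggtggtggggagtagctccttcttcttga
mt-Te, chrM:14071-14139, minus strand: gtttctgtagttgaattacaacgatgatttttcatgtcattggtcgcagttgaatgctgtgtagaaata
mt-Ts1, chrM:6870-6938, minus strand: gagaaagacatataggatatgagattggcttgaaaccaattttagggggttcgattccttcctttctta

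*mt-Ts1*, the serine tRNA of the light strand, stood apart in free L9 C. It had 0 to 13 counts in each first-set library, 22 in free L9 B and 43051 in free L9 C, which is 2.64% of the mitochondrial counts there and most of its tRNA share. Its far end overlaps the end of *mt-Co1* on the other strand by 3 bases, the stop codon of *mt-Co1*, shown in capitals in the junction below on the plus strand. In the same library *mt-Tq* had 299 counts (first set 0 to 14), *mt-Ta* 45 (0 to 8), and *mt-Te* was at 4.29 times its first-set median, all on the light strand. Of the 9 light-strand genes, 6 were more than 1.5 times their first-set median in free L9 C, *mt-Ts1* inside the copied stretch among them. *mt-Tp* was not, at 465 counts. Of 13 heavy-strand genes outside the stretch with a first-set median over 3 counts, 3 were also more than 1.5 times that median. The heavy-strand *mt-Tt* had 20 counts (first set 0 to 6), and the 6 protein genes inside the stretch, also on the heavy strand, stood at 8.03 to 61.2 times. The strands were not compared by a test. Free L9 B differed in another way, with 2765 counts on *mt-Tp* and 0 on *mt-Te*, *mt-Tw* and *mt-Ta*.
mt-Co1 end and mt-Ts1, chrM:6840-6902, plus strand: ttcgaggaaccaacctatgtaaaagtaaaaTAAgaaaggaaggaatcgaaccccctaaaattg

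**Figure D4:**
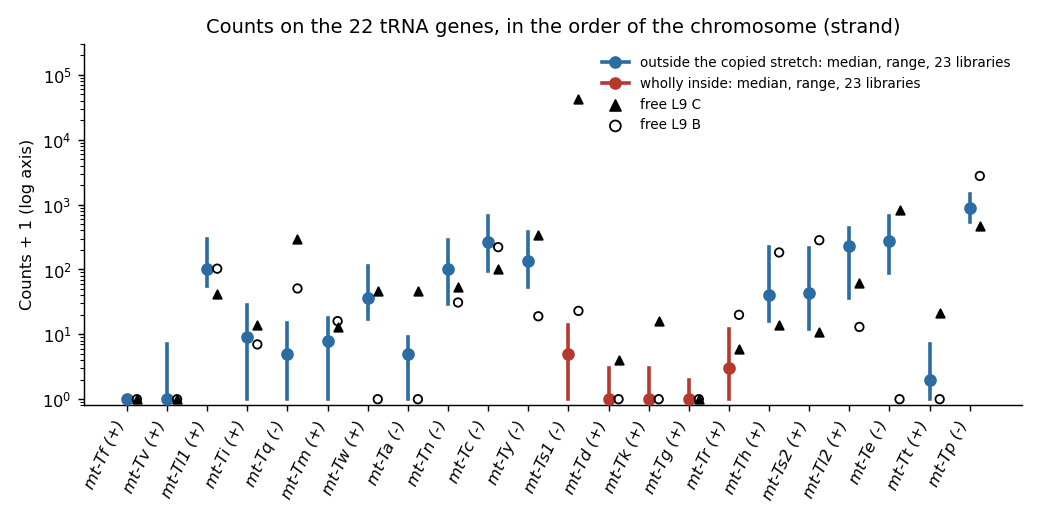
Raw counts plus 1 (log axis) on the 22 tRNA genes in the order of the chromosome, with their strand; circles and bars give the median and range over 23 first-set libraries, triangles free L9 C and open circles free L9 B. *mt-Tp* leads in the first set with a median of 883 counts, and *mt-Ts1* jumps from at most 13 to 43051 counts in free L9 C.

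The effect of the transgene was read from NT against WT, with levels in CPM after scaling between libraries (TMM). Of the 37 genes, 29 passed the filter on low counts (13 protein, 2 rRNA and 14 tRNA genes), and 0 of the 29 had an adjusted p under 0.05 in edgeR's quasi-likelihood test, with 0 at an unadjusted p under 0.05 and 0 also by DESeq2. Over all 15843 genes tested, 8.84% were called. The groups overlapped for each of the 29 genes, whereas 6.94% of all genes tested did not overlap. Of the 29 log2 fold changes 22 were negative, with a median of -0.14 against -0.03 over all genes tested, but that median depended on single mice, at -0.01 without the unnumbered WT mouse and -0.29 without NT 6, and was -0.28 with a covariate for the sex of the mice read from sex-linked transcripts.

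Protein genes outside the stretch, or partly inside it, gave the closest estimates. *mt-Co1* read 26493, 32568, 29000, 30966 and 55754 CPM in WT and 24457 to 34127 CPM (median 27656) in NT. The groups overlapped apart from the unnumbered WT mouse, and the log2 fold change was -0.28 ± 0.18 (SE, n = 6 and 5, edgeR adjusted p = 0.398). *mt-Cytb* averaged 12255 ± 1708 CPM in NT and 13684 ± 3274 in WT (SD), with a log2 fold change of -0.16 ± 0.15. For *mt-Nd1* the log2 fold change was -0.14 ± 0.14 with a 95% interval of -0.42 to 0.13, the narrowest of the protein genes. *mt-Nd2* (-0.21 ± 0.16), *mt-Nd5* (-0.29 ± 0.26) and *mt-Nd4* (-0.10 ± 0.18) had edgeR adjusted p of 0.484, 0.565 and 0.815. *mt-Nd6* was level between the groups, with 1942 ± 244 CPM in NT and 1942 ± 446 in WT (SD).

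Both rRNA genes were lower in NT, without passing the threshold. *mt-Rnr2* read 1453, 1148, 964, 1086 and 1673 CPM in WT, and 636 to 1751 CPM (median 863) in NT. Of the 6 NT mice, 5 lay under each WT mouse and NT 6 lay above all of them. The log2 fold change of *mt-Rnr2* was -0.38 ± 0.21 (edgeR adjusted p = 0.300), the smallest adjusted p of the 29 genes, and without NT 6 the adjusted p was 0.0205. *mt-Rnr1* read 489 to 1165 CPM in NT and 750 to 1400 CPM in WT, with a log2 fold change of -0.33 ± 0.22.

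Inside the copied stretch the errors were several times wider. The log2 fold changes of NT against WT were -0.30 ± 0.62 for *mt-Co2*, -0.61 ± 0.67 for *mt-Co3*, -0.50 ± 0.70 for *mt-Atp6*, -0.29 ± 0.84 for *mt-Nd4l* and -0.09 ± 0.94 for *mt-Atp8*. *mt-Nd3* was higher in NT by 0.90 ± 0.89 on the log2 scale, and this rested on NT 6, with 105 CPM against 8.12 to 29.2 in the other NT mice and 13.1 to 22.0 in WT. For each of these 6 genes the 95% interval reached beyond a 2-fold change in at least 1 direction. Of 11 nuclear copies of mitochondrial genes 10 were tested, and 0 were called in NT against WT. Among tRNA genes, log2 fold changes ran from -0.54 ± 0.52 (*mt-Te*) to 0.51 ± 0.54 (*mt-Ti*), apart from *mt-Ts1* (-0.69 ± 2.03), with the steadiest value for *mt-Tp* at 0.16 ± 0.16.

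**Figure D5:**
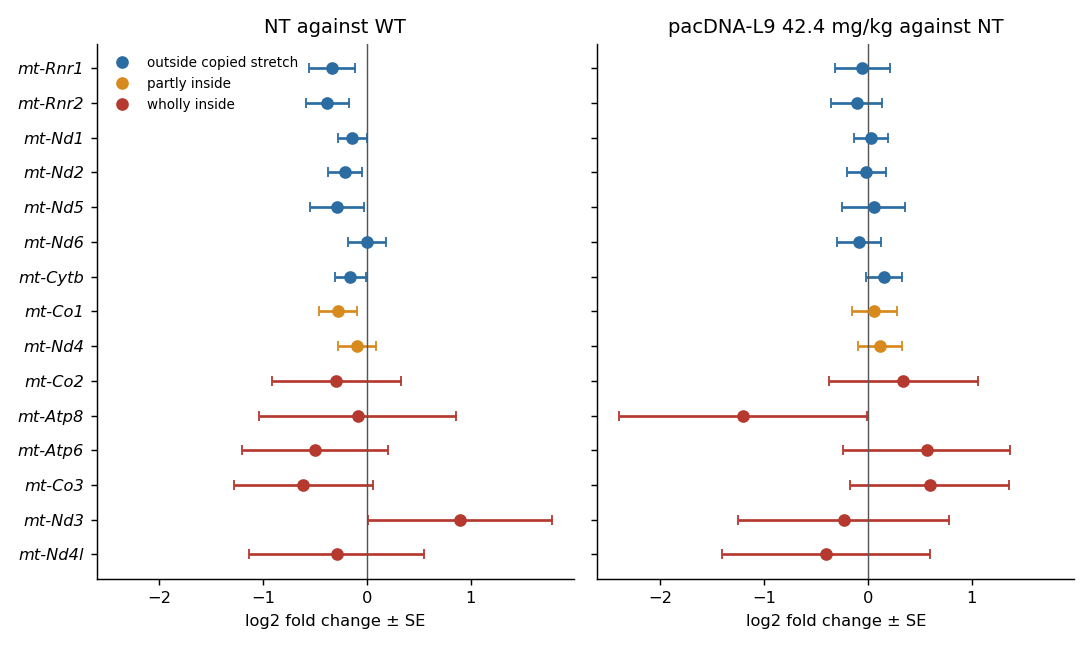
Log2 fold change ± SE of the 13 protein and 2 rRNA genes for NT against WT (6 and 5 mice) and pacDNA-L9 at 42.4 mg/kg against NT (3 and 6 mice). Outside the copied stretch the values lie between -0.38 and 0.15 with short bars, whereas the 6 genes inside carry errors of 0.62 to 1.19, and 0 of the 15 were called in either comparison.

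Each treated group was compared with the same NT mice, so that these comparisons are not independent of each other or of NT against WT. At 42.4 mg/kg, where 4.49% of all genes tested were called, 0 of 29 mitochondrial genes were called, with 1 at an unadjusted p under 0.05 and 0 by DESeq2. The groups overlapped for each of the 29, against 10.6% of all genes that did not overlap. *mt-Co1* read 26791, 30877 and 32523 CPM at 42.4 mg/kg, all within the NT range, and its log2 fold change was 0.06 ± 0.21. The values of *mt-Cytb* (0.15 ± 0.17), *mt-Nd1* (0.03 ± 0.16), *mt-Nd2* (-0.01 ± 0.19), *mt-Nd5* (0.06 ± 0.30), *mt-Nd6* (-0.08 ± 0.21) and *mt-Nd4* (0.12 ± 0.21) were likewise within about 1 SE of 0. The rRNA genes *mt-Rnr1* (-0.05 ± 0.26) and *mt-Rnr2* (-0.11 ± 0.25) also gave values near 0 in this fit, but with a covariate for how libraries are headed in the count table they were -0.59 and -0.53, neither called (edgeR adjusted p of 0.177 and 0.232). *mt-Tp* read 35.5, 44.2 and 38.1 CPM at 42.4 mg/kg and 38.7 to 61.6 CPM (median 51.9) in NT. Its log2 fold change, -0.40 ± 0.18, had the smallest adjusted p of the 29 (0.275 in edgeR). Of the 14 tRNA genes tested, 12 of the 13 outside the stretch had a negative log2 fold change and *mt-Tl2* a positive one (0.16 ± 0.59). For *mt-Co2*, *mt-Co3* and *mt-Atp6* the log2 fold changes were 0.34 ± 0.72, 0.60 ± 0.77 and 0.57 ± 0.81, and for *mt-Nd3*, *mt-Nd4l* and *mt-Atp8* -0.23 ± 1.02, -0.41 ± 1.00 and -1.20 ± 1.19.

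The lower doses and the carrier controls gave 0 called mitochondrial genes of 29 as well. The share of all genes tested that was called was 0% at 5.3 mg/kg, 0.0126% at 21.2 mg/kg, 0% for Brush and 0% for pacDNA-Scr, so that these comparisons of 2 mice with 6 called next to nothing anywhere. DESeq2 called 0 mitochondrial genes in them too, and the number at an unadjusted p under 0.05 was 1, 0, 0 and 0. *mt-Co1* was 26178 ± 5588 CPM at 5.3 mg/kg, 30445 ± 10493 at 21.2 mg/kg, 25474 ± 3396 with Brush and 26942 ± 783 with pacDNA-Scr (SD, n = 2 each), against 28770 ± 3843 in NT (SD, n = 6). Its log2 fold changes, from -0.18 ± 0.25 for Brush to 0.08 ± 0.25 at 21.2 mg/kg, did not differ from 0 beyond their errors, nor did those of *mt-Cytb* (-0.13 ± 0.20 at 5.3 mg/kg the lowest of the 4) or *mt-Rnr2* (-0.29 ± 0.29 at 21.2 mg/kg the lowest). *mt-Nd6* was -0.29 ± 0.25, -0.18 ± 0.24, -0.30 ± 0.25 and -0.34 ± 0.25 in the 4 comparisons in the order above. The groups overlapped for all 29 genes at 21.2 mg/kg, with Brush and with pacDNA-Scr, where 8.47%, 5.01% and 4.66% of all genes tested did not overlap. At 5.3 mg/kg *mt-Ti* and *mt-Tm* were the 2 of 29 genes whose groups did not overlap (10.1% of all genes tested), at 0 to 0.111 and 0.0553 to 0.175 CPM, or a few counts per library, with adjusted p of 0.812 and 0.856 in edgeR.

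Free L9 against NT was the sole comparison with called mitochondrial genes, 7 of 29, all higher, where 3.62% of all genes tested were called. They were *mt-Co2* (log2 fold change 3.63 ± 0.76), *mt-Co3* (4.01 ± 0.82), *mt-Atp6* (4.22 ± 0.87), *mt-Nd3* (4.19 ± 1.05), *mt-Nd4l* (4.80 ± 1.04), *mt-Ts1* (13.44 ± 1.51, a value that depends on the prior count since NT was near 0) and *mt-Tq* (5.68 ± 0.95), with edgeR adjusted p from 0.000182 to 0.032. Of these, 6 lie inside the copied stretch. The groups did not overlap for *mt-Ts1* alone, 1 of 29, against 9.19% of all genes tested. All 7 rested on mouse C: *mt-Co3* read 1016 CPM in mouse A and 12808 in mouse C, where NT ran from 116 to 1088. Without mouse C, 0 were called by edgeR (the remaining free L9 mouse was assumed to vary like the other groups), and *mt-Atp6*, *mt-Nd3*, *mt-Nd4l* and *mt-Tq* turned negative. Mouse C is also the sole library of the second deposited set in the fit. On the chromosome 1 copy, the untreated NT 7 and NT 8 of that set held 5.81% and 5.82% of counts, mouse C 5.05%, and mouse A, which received the agent and is in the first set, 0.0763%. Unlike NT 7 and NT 8, which had 0 mitochondrial counts, mouse C had a mitochondrial share of 12.0%. The deposited set and the single mouse cannot be told apart in these calls, and their part was not tested. Outside the stretch, *mt-Nd1* (0.03 ± 0.19), *mt-Nd2* (0.00 ± 0.22) and *mt-Cytb* (0.06 ± 0.20) were near 0. In that comparison 8 of 10 nuclear copies tested were also called, all higher. Free L9 B, not in the fit, was scaled in a separate fit that kept it, so that its values are not on quite the same scale as the others. It read 81888 CPM on *mt-Co1*, 29444 on *mt-Nd1* and 3001 on *mt-Rnr1*, each above every other library, and 1855 CPM on *mt-Nd6*, within the NT range.

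Nuclear genes that make or process mitochondrial RNA were measured beside their targets. Of 32 such genes, all tested, 1 was called in NT against WT, where 8.84% of all genes were, with 17 positive and 15 negative log2 fold changes and a median of 0.05 (-0.03 over all genes tested). The called gene was *Elac2*, which trims the 3′ ends of mitochondrial tRNAs, at 34.8 ± 2.95 CPM in NT and 28.6 ± 1.90 in WT (SD), with a log2 fold change of 0.28 ± 0.09 (edgeR adjusted p = 0.0466). *Lrpprc*, which stabilises mitochondrial mRNAs, followed at 0.33 ± 0.11 (edgeR adjusted p = 0.0640) and *Fastkd3* at -0.34 ± 0.16 (edgeR adjusted p = 0.212). At 42.4 mg/kg 0 of the 32 were called, with 1 at an unadjusted p under 0.05, and the smallest adjusted p values belonged to *Angel2* (-0.26 ± 0.12), *Fastk* (-0.20 ± 0.10) and *Lrpprc* (-0.25 ± 0.13). *Lrpprc* stood at 113 ± 13.8 CPM in WT, 143 ± 20.0 in NT and 120 ± 16.8 at 42.4 mg/kg (SD).

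Nuclear subunits of complexes I, III, IV and V gave no called gene in NT against WT or at 42.4 mg/kg. Of 73 tested, 0 were called in NT against WT (3 at an unadjusted p under 0.05), with 62 positive log2 fold changes and a median of 0.08, where the mitochondrial genes had a median of -0.14. The smallest adjusted p values belonged to *Atp5mc2* (0.37 ± 0.13), *Ndufb5* (0.40 ± 0.14) and *Ndufa2* (0.40 ± 0.16). At 42.4 mg/kg against NT 0 were called (2 at an unadjusted p under 0.05), 62 log2 fold changes were negative and the median was -0.11, beside -0.11 for the mitochondrial genes and -0.02 for all genes tested. The mitochondrial median there went to 0.06 without NT 6, 0.00 with the sex covariate and -0.32 with the heading covariate, so that its sign is not settled. *Ndufb2* (-0.96 ± 0.32), *Ndufb4* (-0.34 ± 0.14) and *Cox5a* (-0.35 ± 0.18) came closest, with edgeR adjusted p of 0.109, 0.216 and 0.347. Against the same NT mice, negative log2 fold changes numbered 72 of 73 at 5.3 mg/kg, 71 at 21.2 mg/kg, 71 with Brush and 72 with pacDNA-Scr, with medians of -0.30, -0.25, -0.25 and -0.21 and 0 called in each. Scaling by library size alone moved the median of all genes at 5.3 mg/kg from -0.01 to 0.15, so that the value there is best read relative to all genes. With free L9, 57 of 73 were positive (median 0.10) and 1 was called, as was 1 of the 32 genes of mitochondrial RNA, where 3.62% of all genes tested were called. These calls come from mice A and C, and mouse C is the sole library of the second deposited set in the fit.

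Marker genes of the fibre types and other cells in muscle are given beside these results, and their part in them was not tested. The shares of all genes called were 8.84% in NT against WT, 4.49% at 42.4 mg/kg and 3.62% with free L9, and lists of 2 to 7 genes can say little against them. In NT against WT, 3 of 7 fibre markers, 5 of 7 oxidative and slow fibre markers and 1 of 6 fast fibre markers had positive log2 fold changes, with 2, 0 and 1 called higher. Of adipocyte and brown adipocyte markers 0 of 7 and 0 of 2 were called, of erythroid markers 0 of 5, of leukocyte markers 1 of 5 (higher), and of endothelial and smooth muscle markers 0 of 4, all 4 of these last being negative. At 42.4 mg/kg all 7 oxidative and slow fibre markers had positive log2 fold changes (median 2.55, 0 called). Their sum was 1670 to 3950 CPM against 483 to 2806 in the NT mice of the fit, while NT 7 and NT 8, outside it, had 3518 and 1690. The same markers were positive against NT in 7 of 7 at 5.3 mg/kg (median 1.37), at 21.2 mg/kg (1.49) and with pacDNA-Scr (2.03), and in 6 of 7 with Brush (1.73), with 0 called in each. At 42.4 mg/kg leukocyte markers were positive in 5 of 5, with 2 called higher, adipocyte markers negative in 6 of 7 and brown adipocyte markers in 2 of 2, with 0 called in either list. Leukocyte markers were also positive in 5 of 5 at 5.3 mg/kg (median 1.09), with Brush (1.29) and with pacDNA-Scr (0.51). They were positive in 4 of 5 at 21.2 mg/kg (1.47) and in 1 of 5 with free L9 (-0.26), and 0 were called in these 5 comparisons. All 3 libraries at 42.4 mg/kg carry in the count table a heading made of a group name and a running number. NT 6, the unnumbered WT mouse, Brush B, pacDNA-Scr B, free L9 A and free L9 B (not in the fit) carry one too, unlike the rest of the first set. With that heading as a covariate, 328 genes in all were called at 42.4 mg/kg in place of 712, and 0 mitochondrial genes. Among libraries with the heading, the oxidative and slow fibre sum was 2806 CPM in NT 6, against 483 to 1177 in NT 1 to 5. The sum was 2678 CPM in Brush B (Brush A 179) and 3263 in pacDNA-Scr B (pacDNA-Scr A 815). Without the heading, mouse B at 5.3 mg/kg and mouse A at 21.2 mg/kg had 3880 and 3822 CPM. Libraries outside the fit for want of mitochondrial counts also lack the heading. Their sums were 3518 CPM in NT 7, 1690 in NT 8, 4026 and 3300 in mice C and D at 5.3 mg/kg, and 4021 in mouse C at 21.2 mg/kg. The part of the heading in these sums was not tested. With free L9 all 7 oxidative and slow fibre markers were positive (median 2.59, 0 called), at 2559 and 2619 CPM in sum, 1 fibre marker and 2 erythroid markers were called higher, and 0 markers of the other lists. These calls come from mice A and C, and mouse C is the sole library of the second deposited set in the fit. Erythroid markers summed to 319 CPM in mouse A and 868 in mouse C, against 188 to 534 in NT.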

How the data were processed

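Poly(A)-selected RNA from individual quadriceps sections was sequenced in paired reads of 150 bases. Per the submitters' notes the authors aligned reads to GRCm39 with HISAT2 2.0.5 and deposited raw counts per gene. Rsubread is the counter named in the study's methods, and the options for strand and for reads with several matches are not given in the sources used here. Of 56748 gene rows 56017 matched the annotation (GENCODE, GRCm39), which gave positions and lengths. Copies of mitochondrial sequence were found with blastn 2.17.0+. Counts of 24 libraries (25 with mitochondrial counts, less free L9 B) were fitted together in edgeR 4.0.16 (R 4.3.3) with 8 conditions, TMM scaling, filterByExpr and the robust quasi-likelihood test, with Benjamini-Hochberg adjustment over 15843 genes at 0.05. The script was tested on simulated counts. DESeq2 1.42.0 was an alternative. Free L9 B was kept apart by the rule that chose the genes and libraries. No p was computed for shares.

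Members and lists were chosen with earlier results of these data known. The values given in full are those of the protein and rRNA genes and of tRNA genes that passed the filter, with the 3 smallest adjusted p of each nuclear list. Wilson intervals and floors cover counting error only, and intervals of log2 fold changes come from the edgeR fit. Sex, for a covariate, was read from *Xist* and Y-linked genes of the mice.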

Additional observations from a re-analysis of the deposited data

Results flagged for a closer look

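Samples that stood far from the rest of their group by Dixon's criterion were found in 14 of 66 groups of values tested, 9 in WT and 5 in NT. Chance flags about 1 in 20 of independent groups, but these share the same mice, so that the count cannot be set against it. All 14 flags fell on the unnumbered WT mouse, NT 6 and WT 1. The unnumbered WT mouse gave a mitochondrial share of 13.3% (other WT mice 6.99% to 8.77%) and normalized levels of 55754 CPM for *mt-Co1*, 19352 for *mt-Cytb*, 12994 for *mt-Nd4*, 1400.1 for *mt-Rnr1*, 1259 for *mt-Atp6* and 10.4 for *mt-Tl1*. All 6 genes were above the other WT mice. NT 6 gave 1751 CPM for *mt-Rnr2*, 105 for *mt-Nd3*, 14.5 for *mt-Tl1*, 5.57 for *mt-Tw* and 13.9 for *mt-Tn*, each the highest of NT. WT 1 had 96.4% of its mitochondrial counts on protein genes and 3.47% on rRNA genes, where the other WT mice had 97.4% to 97.6% and 2.24% to 2.41%.

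Counts on the chromosome 1 copy, which lie outside the 37 genes, held 5.81% of the library in NT 7, 5.82% in NT 8, 6.09% and 5.35% in the mice C and D at 5.3 mg/kg, 6.63% in mouse C at 21.2 mg/kg and 5.05% in free L9 C, against at most 0.170% in the WT and NT libraries with mitochondrial counts. Free L9 B, in no comparison, had a mitochondrial share of 22.3%, where WT and NT ranged from 6.17% to 13.3%.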

How the results depend on the processing

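In NT against WT the number of mitochondrial genes called went from 0 to 1, *mt-Rnr2* lower, in 2 settings. With a replicate block over WT and NT 1 to 4 it was 1 (adjusted p = 0.0440 in edgeR), and without the block in the same libraries 0 (0.0708). The unnumbered WT library could not enter the block, and the numbers did not pair the mice (correlations of 0.242, 0.0826, 0.0638 and 0.281). Leaving out single mice gave 0 to 1 called, the 1 without NT 6. For free L9 against NT, 7 became 0 with the first deposited set alone, 13 without the libraries named by group and running number (chosen after seeing the data), and 0 to 14 when single mice were left out (0 without mouse C, 14 without mouse A). With the first deposited set alone, which leaves out mouse C, the log2 fold changes reversed to -0.79 for *mt-Atp6*, -0.97 for *mt-Nd3*, -2.34 for *mt-Nd4l* and -0.30 for *mt-Tq*, and leaving out single mice gave up to 5.22, 5.19, 5.80 and 6.69. The other 5 comparisons gave 0 called in each setting run. The mitochondrial share of free L9 moved from 9.51% to 13.8% with mouse B kept, and that of pacDNA-Scr from 7.34% to 7.69% without *Acta1* in the denominator and 7.16% without the rRNA genes. Over all genes, calls ran from 631 (block) to 1781 (DESeq2) in NT against WT, 178 (without mouse B) to 1044 (DESeq2) at 42.4 mg/kg, 0 to 2124 with free L9, 0 to 25 at 21.2 mg/kg, 0 to 19 at 5.3 mg/kg and 0 to 17 with Brush and with pacDNA-Scr. Library size alone moved the all-gene median with free L9 to -0.15. Of 3791 values of single genes under alternatives, 3443 kept their direction and side of the threshold, 316 uncalled ones changed sign, 14 lost a call, 10 gained one and 8 called ones reversed. Low counts limit most tRNA genes. How reads that fit 2 places bear on genes inside the copied stretch was not tested.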
